A study of Mus musculus with 4 samples.

Results

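The cytosolic ribosomal protein genes were followed across recruited alveolar macrophages of 2 genotypes. Members were the rows of the deposited count table whose symbol was Rpsa, Rplp0, Rplp1 or Rplp2, or was Rpl or Rps followed by a number and, at most, the ending a, x, l or l1. The rule found 83 of the 16360 gene symbols in the table. They were 30 small-subunit genes, 43 large-subunit genes, the 3 stalk genes and 7 paralog copies, whose symbols end in l or l1. The S6 kinase genes and the symbols marked as pseudogenes (-ps) were left out. No expression value entered the rule.

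Recruited alveolar macrophages, the monocyte-derived cells that enter the airspaces of an injured lung, were sorted for high CD64, low Siglec-F and high CD11b. They came from male mice of the strain labelled CD57/Bl6, aged 8 to 10 weeks, that had received 100 µl of intratracheal bleomycin at 1 U/ml 7 days earlier. One genotype (R213G) was homozygous for the R213G variant of EC-SOD, the extracellular superoxide dismutase encoded by Sod3, and the other was wild type (WT). Each genotype had 2 libraries, and all 4 were exposed to bleomycin, so no uninjured control was compared. The labels do not say whether a library is 1 mouse or a pool, so the spread behind each p-value is that among the 4 libraries and may be technical.

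Cytosolic ribosomal proteins are built around ribosomal RNA into a small subunit, which reads the mRNA, and a large subunit, which joins amino acids. Every cell makes them, their genes are usually among the most highly transcribed, and their mRNAs begin with a pyrimidine tract that lets mTORC1 signalling raise or lower the translation of the whole set together. In macrophages the output of ribosomal proteins moves with growth and activation. Mammalian genomes also hold many processed pseudogenes of these genes, which are intronless copies of the mRNA.

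The sequence that the members share with such copies is shown first, because their counts differed widely with it. Each member's coding sequence was cut into every run of 50 bases (50-mers), and each was looked up in all other annotated genes (GENCODE vM21, GRCm38). Of the 81 members with a coding model, 78 shared at least 1 coding 50-mer with an annotated pseudogene, and the median share of 50-mers found in no other gene was 8.7%. The other 2 members, Rps4l and Rpl6l, are themselves annotated as pseudogenes. The stretches below lie within coding sequence and are given 5′ to 3′ with their positions in the named transcript. The first is from Rps6 (chromosome 4, 86854660 to 86857412, minus strand), the small-subunit protein phosphorylated by the S6 kinases, at bases 557 to 606 of Rps6-201. It is the most widely shared coding 50-mer of Rps6, and occurs in 13 other gene models, all of them pseudogenes. The other is the middle 50 bases of the coding sequence of Rpl4 (bases 660 to 709 of Rpl4-201), which occurs in 0 other gene models. The most widely shared coding 50-mer of Rpl4 occurs in 1 other gene model, a pseudogene.
Rps6: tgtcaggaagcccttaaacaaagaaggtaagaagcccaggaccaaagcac
Rpl4: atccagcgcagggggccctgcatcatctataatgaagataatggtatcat

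The counts of these genes lay far apart. Values of a genotype are given in the order replicate 1, replicate 2 throughout. Rps6, with 0% of its coding 50-mers found in no other gene, had 36 and 27 counts in R213G replicates 1 and 2, against 80 and 59 counts in the WT replicates of those numbers. Rpl4, with 79.7% of its coding 50-mers in no other gene, had 27654 and 21225 counts in the R213G libraries against 23415 and 21023 in the WT libraries. Per kb of coding sequence these were mean levels of 2.00 CPM for Rps6 and 545 CPM for Rpl4. CPM is counts per 1000000 of the library size after scaling.

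Across the 81 members with a coding model, the level per kb rose with the share of 50-mers found in no other gene (Spearman's rho 0.657, across genes that share the same libraries, given as a description). The 44 members with under 10% of such 50-mers had a median of 18.3 CPM per kb, ranging from 0.958 for Rpl24 to 721 for Rpl41. The 17 members from 10% to under 25% had a median of 68.5 CPM per kb. The medians were 451, 491 and 545 CPM per kb in the 6, 7 and 7 members of the 3 classes above. Some members departed from this order. Rpl41, which encodes the shortest member, had 0% by this measure and 721 CPM per kb, but its coding sequence is 75 bases of a 544-base transcript, so most of its transcript lies outside the part compared. Its mean of 54.1 CPM was counted over the gene, so dividing by these 75 bases raises its level per kb. All members were counted over the gene, so a coding part that is small within its transcript raises other levels too. Rps16, also at 0% and with 438 coding bases in a 1109-base transcript, had 159 CPM per kb. Rps25 at 1.84% had 237 CPM per kb and Rps7 at 4.69% had 179. The paralogs Rpl3l and Rpl39l, both at 100%, had 0.414 and 3.08. How reads that map to several places were counted is not given in the sources used here, and the part of shared sequence in these levels was not tested. The level of a member with many copies is therefore read below only between libraries.

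**Figure D1:**
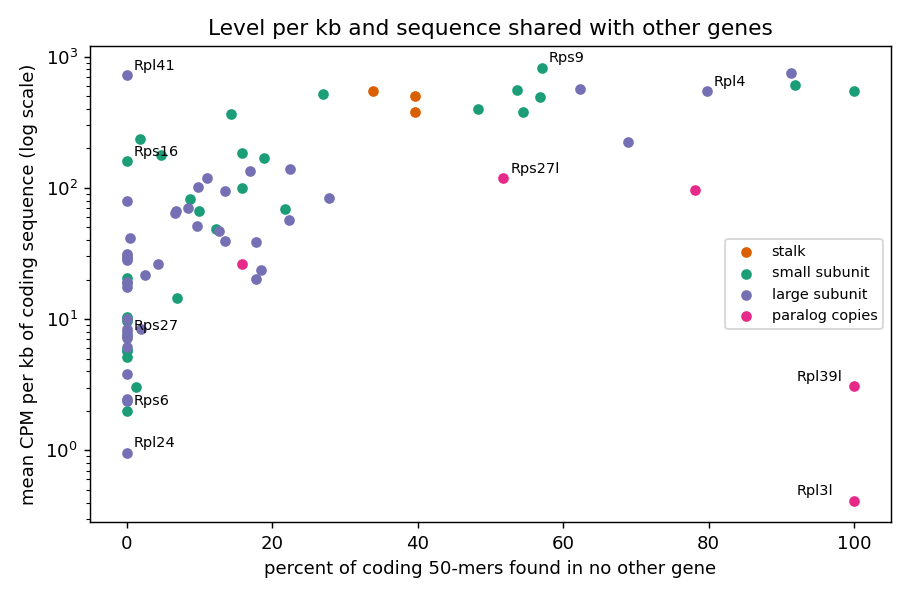
Mean level of each ribosomal protein gene over the 4 libraries, in CPM per kb of coding sequence on a log scale, against the percent of its coding 50-mers found in no other annotated gene. Each point is 1 of 81 members, coloured by group. Members at 0% span 0.958 (Rpl24) to 721 (Rpl41) CPM per kb, and those from 25% upward lie at 84.1 (Rpl34) or above except the paralogs Rpl3l and Rpl39l. The level per kb of Rpl41 is raised by its coding sequence of only 75 bases.

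The libraries were close in depth, with total counts from 33488569 to 35176210. R213G replicate 1 stood apart: it had 13584 genes with at least 1 count against 14598 to 15194 in the others, and the non-coding transcript Gm42418 was at 1689 CPM there against 513 to 702 CPM. The counts and medians of gene groups, and the single log2 fold changes that moved most, are therefore also given without that library. The sort markers matched the labelled gate, with the CD64 gene Fcgr1 at 243 to 261 CPM, the CD11b gene Itgam at 721 to 886 CPM and the Siglec-F gene Siglecf at 10.8 to 12.1 CPM. Sod3 itself was low in all libraries, with 4 and 47 counts in the R213G libraries against 47 and 96 in the WT libraries.

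Together the 83 members took 0.779% of all counts in R213G replicate 1 and 0.554% in R213G replicate 2. In WT they took 0.649% and 0.581% in replicates 1 and 2. R213G replicate 1 was thus the highest and R213G replicate 2 the lowest of the 4 libraries, with both WT libraries between them. The 95% Wilson intervals, which cover counting error only, were 0.776% to 0.782% and 0.551% to 0.556% for the R213G libraries and did not meet those of WT. The mean was 0.666% in R213G and 0.615% in WT, a difference of 0.052 percentage points against a spread of 0.117 (pooled SD of replicates). Without R213G replicate 1 the difference turned to -0.061 percentage points. The counts were concentrated in few members: the 10 highest held 60.9% of them, 34 members had at least 1000 counts in every library, and 9 had under 100 counts in every library.

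**Figure D2:**
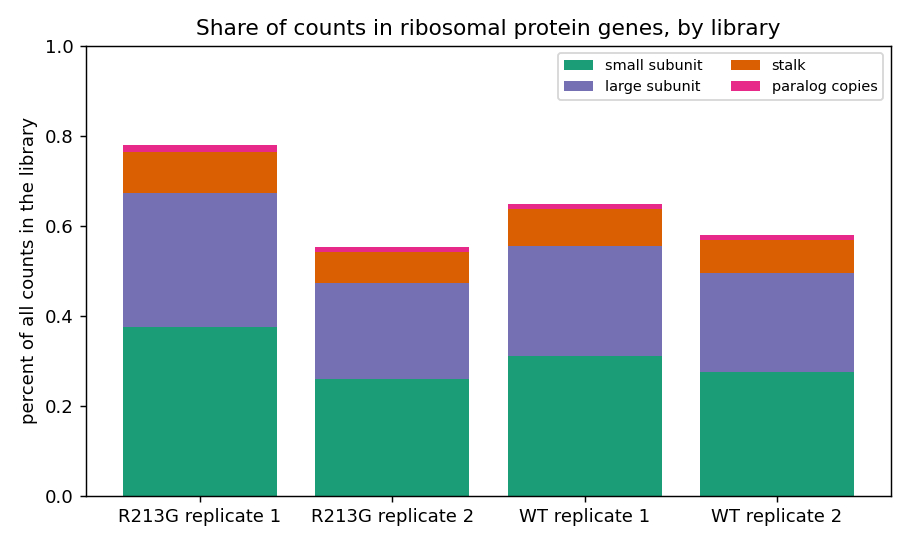
Percent of all counts in each library taken by ribosomal protein genes, stacked by small subunit, large subunit, stalk and paralog copies. Totals are 0.779% and 0.554% in R213G replicates 1 and 2, against 0.649% and 0.581% in the WT replicates.

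Within the R213G genotype most members differed in the same direction. Of the 82 members that passed the filter on low counts, 68 were higher in R213G replicate 1 than in R213G replicate 2, with a median log2 difference of 0.45. Over all 13575 tested genes 47.3% were higher in that library, with a median of -0.022. The WT libraries differed less, with 56 of the 82 members higher in WT replicate 1 (49.1% of all genes) and a median of 0.14. R213G replicate 1 was the highest of the 4 libraries for 57 of the 82 members, against 31.2% of all genes. Among other protein-coding genes of at least 5 CPM with a transcript under 1000 bases this share was 49.2%. In the lists of other genes read below it ran from 17.6% (mTORC1 and Myc control) to 72.2% (translation factors), with 55.8% in mitochondrial ribosomal proteins. Among the 61 members with a mean of at least 5 CPM, R213G replicate 1 was highest for 52 (32.2% of all tested genes at that level). Among the 29 with at least 50 CPM it was highest for 28 (30.6% of all tested genes at that level). The exception among the last was Rplp1. The 21 members with a mean under 5 CPM showed no such order: 5 were highest in R213G replicate 1, and their log2 CPM ranged over the libraries by a median of 1.29 against 0.53 in the 61.

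**Figure D3:**
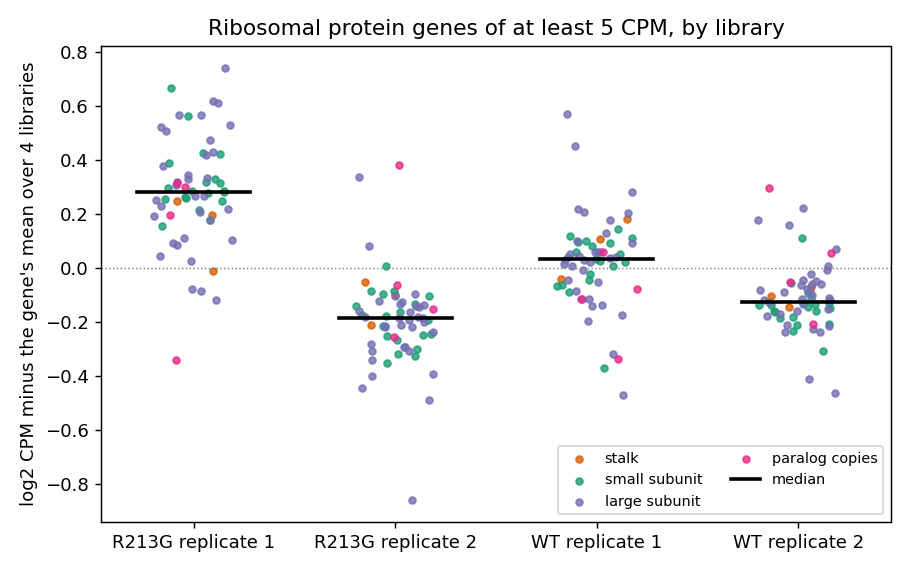
Log2 CPM of each of the 61 ribosomal protein genes with a mean of at least 5 CPM, minus that gene's mean over the 4 libraries, by library, with the median as a bar. In R213G replicate 1, 56 of the 61 lie above 0 (median 0.28), and in R213G replicate 2, 4 do (median -0.19).

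Some markers of dendritic cells moved along with this order, and short transcripts did so between the R213G libraries only. The dendritic cell markers (5 of 5 listed genes in the table) summed to 92.3 and 21.4 CPM in R213G replicates 1 and 2, against 73.0 and 23.2 CPM in the WT replicates. Flt3, the growth factor receptor of dendritic cell precursors, was at 20.2, 6.29, 30.6 and 7.11 CPM in R213G 1, R213G 2, WT 1 and WT 2, and the lectin gene Cd209a at 61.9, 10.2, 31.3 and 13.1 CPM. Both libraries numbered 1 were thus above both numbered 2, as they were for the ribosomal share of counts. Xcr1, which marks conventional dendritic cells of the cross-presenting type, had 0 counts in both libraries numbered 1. Clec9a, also on this list, had 0 and 20 counts in the R213G libraries against 36 and 8 in the WT libraries. The epithelial list (5 of 5 in the table) summed to 34.5 and 19.7 CPM in R213G and 16.1 and 12.6 in WT, with Sftpc, the alveolar type II marker, at 0 counts in R213G replicate 1 and WT replicate 1. Most of that sum was Epcam, at 32.2 and 14.8 CPM in R213G and 14.9 and 9.59 in WT. Sftpb and Scgb1a1 were lower in R213G replicate 1 than in R213G replicate 2. The T and NK cell list (3 of 5 in the table) stayed between 0 and 2.20 CPM, the B cell list (2 of 4) between 0.466 and 2.21 CPM, the neutrophil list (3 of 6) between 11.1 and 20.7 CPM and the fibroblast list (1 of 4) at or under 0.029 CPM. Nearly all of the neutrophil sum was S100a8, at 11.1 to 19.7 CPM. The endothelial list (3 of 3) was lowest in R213G replicate 1, at 92.2 CPM against 114 to 138 CPM. Nearly all of this was Vwf, at 90.5 CPM there, while Cdh5 was at 1.08 CPM there against 0.212 to 1.08 in the others. The resident alveolar macrophage list (8 of 8) was at 269 and 275 CPM in the R213G libraries against 186 and 575 in the WT libraries. Chil3 made up most of it, at 198 and 177 CPM in R213G against 134 and 504 in WT. Among 508 other protein-coding genes with a transcript under 1000 bases and a mean of at least 5 CPM, the median log2 difference between R213G replicates 1 and 2 was 0.14. Between the WT libraries their median was -0.012, unlike that of the ribosomal members. Over all tested genes of at least 5 CPM the median between the R213G libraries was -0.011. The part of these cells, of transcript length and of Gm42418 in the ribosomal order was not tested, and fewer cells of a type cannot be told apart from less RNA per cell in such bulk samples.

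The question of the design was how R213G differed from WT. No ribosomal protein gene passed: 0 of the 82 tested members had an adjusted p under 0.05 (edgeR quasi-likelihood, Benjamini-Hochberg over 13575 genes), against 0.0% of all tested genes. At an unadjusted p under 0.05 there were 0 members, against 2.22% of all genes. DESeq2 and limma voom also called 0 members, and by both 0 had an unadjusted p under 0.05. The log2 fold change was positive in 59 of the 82 members, against 49.1% of all tested genes, with a median of 0.096 against -0.0056. Of the 61 members of at least 5 CPM, 50 were positive (82.0%, median 0.11). Among the 508 other protein-coding genes of that level with a transcript under 1000 bases, 63.8% were positive (median 0.067). Without R213G replicate 1 the log2 fold change was positive in 16 of the 82 members and their median was -0.14. The sign of the genotype difference thus rested on that library. Without R213G replicate 2 the median was 0.30, and 21 members had an unadjusted p under 0.05 but 0 an adjusted one. Both R213G libraries lay above both WT libraries for 7 members (13.7% of all genes) and below them for 6 (15.2% of all genes). The 7 were Rps10, Rps23, Rps27, Rps29, Rpl21, Rpl23a and Rpl36a, and the 6 included Rps6, Rps27a, Rpl19, Rpl24 and Rpl39. For Rpl39 the groups all but touched, at 5.477 CPM in R213G replicate 1 and 5.479 in WT replicate 2.

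**Figure D4:**
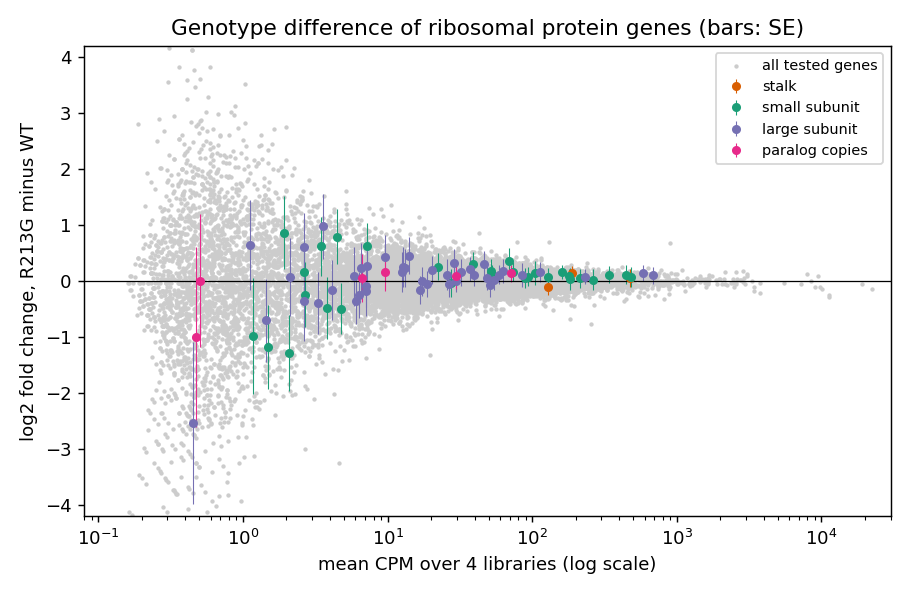
Log2 fold change (R213G minus WT, bars are the SE) of the 82 tested ribosomal protein genes against their mean CPM on a log scale, over all tested genes in grey (113 of which lie beyond the vertical limits of 4.2). Members above 50 CPM sit near 0, between -0.11 and 0.35, and the scatter widens among members under 5 CPM.

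The members of smallest unadjusted p toward R213G were mostly low in counts. Rpl21, a large-subunit protein whose coding sequence shares 50-mers with 81 pseudogenes, was at 4.19 and 5.29 CPM in the R213G libraries against 3.60 and 1.25 in the WT libraries (log2 fold change 0.98 ± 0.58 SE, unadjusted p = 0.125 by edgeR, adjusted 0.9996). WT replicate 2 was low, and the other 3 libraries were close. Without WT replicate 2 the log2 fold change of Rpl21 was 0.40, and without WT replicate 1 it was 1.92. Rps23, a protein of the decoding centre, was at 7.21 and 4.196 CPM in the R213G libraries against 3.30 and 3.26 in the WT libraries (0.79 ± 0.49). Rps10, a small-subunit protein that Zfp598 ubiquitinates on collided ribosomes, was at 10.95 and 6.50 CPM in the R213G libraries against 5.33 and 5.94 in the WT libraries (0.63 ± 0.41). In both genes R213G replicate 1 stood above the rest, while R213G replicate 2 lay only just above the WT libraries. Without R213G replicate 1 the log2 fold change of Rps23 was 0.36 and that of Rps10 was 0.20. Rps16 was at 100.1 and 56.3 CPM in the R213G libraries against 64.7 and 57.6 in the WT libraries (0.35 ± 0.24). Rpl30 was at 63.1 and 39.5 CPM against 41.9 and 40.6 CPM (0.31 ± 0.22). For these 2 the R213G libraries lay on both sides of WT, and without R213G replicate 1 their log2 fold changes were -0.12 and -0.062.

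Toward WT the members described here, all among the 5 of smallest unadjusted p, had under 7 CPM in every library. Rps6 was at 1.05 and 0.776 CPM in the R213G libraries against 2.42 and 1.72 in the WT libraries (log2 fold change -1.17 ± 0.75 SE, unadjusted p = 0.151 by edgeR). Its groups did not overlap, but its counts were between 27 and 80. Rpl24, a large-subunit protein that forms a bridge to the small subunit, had 0 and 9 counts in the R213G libraries against 27 and 25 in the WT libraries. The 0 counts in R213G replicate 1 allow up to 0.0879 CPM by a floor of 3 counts. Rps27a, made as a fusion with ubiquitin, was at 4.36 and 3.51 CPM in the R213G libraries against 6.39 and 4.72 in the WT libraries (-0.49 ± 0.45). Rpl19 was at 1.35 and 0.862 CPM in the R213G libraries against 1.88 and 1.72 in the WT libraries (-0.70 ± 0.74). The log2 fold change of Rps27a was -0.26 without WT replicate 1, and that of Rpl19 became -0.42 when R213G replicate 2 was left out and -1.05 when R213G replicate 1 was. In these members the R213G libraries lay below the WT libraries, and 0% of their coding 50-mers were found in no other gene.

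The small subunit held 23 of 30 positive members, with a median log2 fold change of 0.0999. Without R213G replicate 1, 7 were positive and the median was -0.12. Rps9 and Rps3 were among its 3 highest members per kb. Rps9, which lies at the mRNA entry channel, was at 584 and 401 CPM in the R213G libraries against 503 and 433 in the WT libraries. Rps3, also at the entry channel and known outside the ribosome as a partner of NF-kB, was at 533 and 389 CPM in the R213G libraries against 470 and 380 in the WT libraries. In both genes R213G replicate 1 was highest and WT replicate 1 second.

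Rps2 and Rps15, listed with Rps3, Rps9 and Rps23 as decoding and entry proteins, had the same 2 libraries on top. Rps2 was at 180 and 162 CPM in the R213G libraries against 164 and 142 in the WT libraries, and Rps15 at 257 and 178 CPM in the R213G libraries against 228 and 192 in the WT libraries. R213G replicate 1 was the highest library in all 5 genes of this list. Rps19, the gene most often mutated in Diamond-Blackfan anaemia, was at 88.6 and 66.3 CPM in the R213G libraries against 71.5 and 66.5 in the WT libraries. Rpsa, known also as the laminin receptor precursor, was at 2.40 and 2.50032 CPM in the R213G libraries against 3.69 and 2.13 in the WT libraries, with 27 pseudogenes sharing its coding 50-mers. Rps28 had 2 and 53 counts in the R213G libraries against 28 and 78 in the WT libraries, so the replicates of 1 genotype differed more than the genotypes. Rps12 had 62 counts in R213G replicate 1 and 149 to 157 in the others.

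The large subunit held 29 of 43 positive members, with a median log2 fold change of 0.10 (6 positive and -0.16 without R213G replicate 1). Rpl8, next to the peptidyl transferase centre, was at 693 and 524 CPM in the R213G libraries against 591 and 511 in the WT libraries. Rpl32 was at 262 and 211 CPM in the R213G libraries against 228 and 220 in the WT libraries, and Rpl41 at 60.8 and 48.1 CPM in the R213G libraries against 57.4 and 49.9 in the WT libraries. In these 3 genes R213G replicate 1 was again the highest library and WT replicate 1 the second. Rpl4, which lines the exit tunnel for the growing chain, was the highest member by CPM, at 810 and 610 CPM in the R213G libraries against 709 and 613 in the WT libraries.

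The exit tunnel and exit site, where the nascent chain leaves, had 6 of 10 positive members (1 without R213G replicate 1). Rpl22, which sits at this surface, was at 109 and 68.5 CPM in the R213G libraries against 91.9 and 72.4 in the WT libraries. Rpl35 was at 31.5 and 22.2 CPM in the R213G libraries against 30.7 and 18.9 in the WT libraries. In both genes the libraries numbered 1 were above those numbered 2 in each genotype. Rpl39, the small protein that narrows the tunnel, was at 5.48 and 5.12 CPM in the R213G libraries against 8.14 and 5.48 in the WT libraries. Rpl38, required for translation of some Hox mRNAs in the embryo, was at 17.0 and 14.7 CPM in the R213G libraries against 19.3 and 16.2 in the WT libraries. In both, WT replicate 1 was the highest library.

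Rpl5 and Rpl11, which with 5S RNA form the particle that binds Mdm2 and stabilises p53, were uneven between libraries. Both had 0% of coding 50-mers found in no other gene, so their low counts were not read as low mRNA. Rpl5 was at 7.38 and 5.86 CPM in the R213G libraries against 10.1 and 4.95 in the WT libraries, and Rpl11 at 3.63 and 2.07 CPM in the R213G libraries against 4.45 and 3.002 in the WT libraries. In both genes WT replicate 1 was the highest library, and the genotypes overlapped. Rpl13a, the subunit of the interferon-gamma-induced complex that silences inflammatory mRNAs in monocytes, was at 18.5 and 10.2 CPM in the R213G libraries against 13.4 and 10.9 in the WT libraries. The widest range over the libraries among members of at least 5 CPM was that of Rpl37, at 9.08 and 2.99 CPM in the R213G libraries against 5.27 and 6.06 in the WT libraries. Rpl12 (14.001 and 7.90 against 6.60 and 9.62 CPM) and Rpl28 (17.5 and 8.94 against 12.3 and 11.3 CPM) came next with Rps10 and Rpl5. R213G replicate 1 was the highest library in Rpl37, Rpl12, Rpl28 and Rps10, and WT replicate 1 in Rpl5.

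The stalk, a flexible arm of the large subunit that recruits the elongation factors, had 2 of 3 positive members (1 of 3 without R213G replicate 1). Its base Rplp0 was at 560 and 407 CPM in the R213G libraries against 507 and 426 in the WT libraries. Rplp2 was at 215 and 181 CPM in the R213G libraries against 182 and 174 in the WT libraries. Rplp1, the partner of Rplp2, was at 127 and 120 CPM in the R213G libraries against 145 and 122 in the WT libraries. Rplp1 was thus the stalk gene in which WT replicate 1, not R213G replicate 1, was highest.

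Paralog copies were compared with their parents by counts, without correction for coding length. Rps27l (chromosome 9, 66946086 to 66949516, plus strand), a copy of Rps27 known as a p53 target, has a coding sequence as long as that of Rps27 (chromosome 3, 90212522 to 90213651, minus strand). The sequences are shown because nearly all counts of the pair fell on the copy. They match at 192 of 252 bases (76.2%), and capitals mark the 60 bases that differ.
Rps27: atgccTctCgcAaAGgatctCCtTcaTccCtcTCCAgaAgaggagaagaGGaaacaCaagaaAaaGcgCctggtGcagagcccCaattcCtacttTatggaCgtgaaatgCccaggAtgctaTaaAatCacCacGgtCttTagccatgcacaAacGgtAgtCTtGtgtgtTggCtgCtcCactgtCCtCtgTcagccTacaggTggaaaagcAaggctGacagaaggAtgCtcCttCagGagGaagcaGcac
Rps27l: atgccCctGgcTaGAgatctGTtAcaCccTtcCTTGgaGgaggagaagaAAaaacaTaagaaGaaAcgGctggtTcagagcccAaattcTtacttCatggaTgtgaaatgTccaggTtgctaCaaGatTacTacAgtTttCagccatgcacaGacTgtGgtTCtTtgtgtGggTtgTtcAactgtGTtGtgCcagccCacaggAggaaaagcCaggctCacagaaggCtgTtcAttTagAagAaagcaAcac

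Rps27l had 1250 and 859 counts in the R213G libraries against 898 and 1050 in the WT libraries, whereas Rps27 had 91 and 79 counts in the R213G libraries against 44 and 47 in the WT libraries. The copy thus held 93.2% and 91.6% of the pair's counts in R213G and 95.3% and 95.7% in WT. Of the coding 50-mers, 51.7% were found in no other gene for Rps27l and 0% for Rps27, so the ratio is one of assigned reads and was not taken as a ratio of mRNAs. Rpl7l1 was at 81.7 and 68.2 CPM in the R213G libraries against 67.5 and 68.7 in the WT libraries, and held 36.8% to 41.2% of the counts it shared with Rpl7. Rpl22l1 held 9.76% to 11.2% of the counts shared with Rpl22, a share that moved little between libraries. Of the coding 50-mers, 78.1% were found in no other gene for Rpl7l1 and 22.5% for Rpl7. For Rpl22l1 it was 15.8% and for Rpl22 69.0%, so these shares too are of assigned reads. The tissue-restricted copies were near the floor: Rpl3l, a muscle form, had 29 and 6 counts in the R213G libraries against 9 and 25 in the WT libraries, and Rpl39l, a testis form, had 0 and 22 in R213G and 0 and 43 in WT. Both libraries numbered 1 thus lacked Rpl39l. Rps4l had 176 and 296 counts in the R213G libraries against 171 and 275 in the WT libraries, lower in the libraries numbered 1, unlike Rps4x at 2071 and 1691 in R213G and 1769 and 1620 in WT. Rpl6l, with 6 and 2 counts in the R213G libraries against 4 and 4 in the WT libraries, was the member that did not pass the filter.

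The members have features in common beyond their name. They lie on 19 chromosomes, with 14 members on chromosome 7. Those tested and annotated as protein coding had a median transcript of 774 bases and 5 exons, against 2836 bases and 9 exons in the 11620 other tested protein-coding genes. A small nucleolar RNA gene, whose product guides modification of ribosomal RNA, lay within 29 of 81 members (35.8%) against 1.64% of the others. RefSeq promoter sequences (GRCm38.p6) were matched for 61 of the 83 members. In the 50 bases on either side of the annotated start, at least 1 of the pyrimidine runs CTCTTT or CTTTCC or CTTCCT or CTTTTC, which overlap one another, was found on the sense strand in 42 of the 61 (68.9%). The share was 18.9% over 9755 tested genes and 19.5% over all 27025 genes of the promoter table. CCGGAA, the core read by ETS factors, was found on either strand in 34.4% of members against 18.8% of tested genes, and AAGATGGC, the core read by YY1, in 6.56% against 3.44%. These motifs were chosen after the start sequences had been seen, and a match is a description of the letters only.

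The 30 bases around the annotated start are printed for 6 members to show the tract, with 15 bases before the start and 15 from it. Capitals mark a listed run, or CTCTTT and CTTTCC where they overlap as CTCTTTCC. In Rpl35 (CTTTCC) and Rpl35a (CTTCCT) a further listed run overlaps the capitals and is partly in lower case. The pyrimidine stretch around the capitals can be longer. Rpl35a has several annotated starts, and the one with the run is shown.
Rps9, chr7:3704026-3704055, plus strand: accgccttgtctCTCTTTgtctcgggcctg
Rpl28, chr7:4792950-4792979, plus strand: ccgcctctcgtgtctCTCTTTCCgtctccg
Rpl18, chr7:45718056-45718085, plus strand: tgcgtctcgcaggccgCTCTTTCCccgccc
Rpl35a, chr16:33056467-33056496, plus strand: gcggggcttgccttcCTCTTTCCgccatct
Rpl35, chr2:39005117-39005146, minus strand: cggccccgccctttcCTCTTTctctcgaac
Rpl38, chr11:114668565-114668594, plus strand: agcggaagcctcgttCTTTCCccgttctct

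In 5 of these 6, which include members at 584 CPM (Rps9) and at 17.5 CPM (Rpl28) in R213G replicate 1, that library was the highest, and Rpl38 was the exception. These 6 were chosen for a run at or near the annotated start. A listed run lay within these 30 bases in 22 of the 61 matched members (36.1%), fewer than in the wider window. Other pyrimidine stretches, such as that of Rpl7a, were not counted.

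Genes that work with the ribosome were read from lists of their own. Of the 5 ribosomal proteins in the table that the symbol rule does not reach, 4 had a positive log2 fold change (3 without R213G replicate 1). Rack1, the scaffold on the small subunit head, was at a mean of 745 ± 157 CPM (SD, n = 2) in R213G against 704 ± 81.9 CPM in WT. Translation factors, many of whose mRNAs carry the same tract, were positive in 12 of 18 (4 of 18 without that library), and 17 of 18 were higher in R213G replicate 1 than in R213G replicate 2, with a median log2 difference of 0.24. Ribosome assembly genes were positive in 27 of 42 (19 of 42 without it), and 35 of 42 were higher in R213G replicate 1 than 2, with a median of 0.18. In these 3 lists 0 genes passed by edgeR, and 0 had an unadjusted p under 0.05. Over all tested genes 49.1% were positive and 47.3% were higher in R213G replicate 1 than 2.

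Among assembly factors Rpf2, which loads the 5S particle, had a log2 fold change of 0.55 ± 0.28 (unadjusted p = 0.076 by edgeR), and Nop16 0.46 ± 0.25. Without R213G replicate 1 that of Rpf2 was 0.29, and without WT replicate 1 that of Nop16 was 0.29. Mitochondrial ribosomal proteins, which serve the separate ribosome of mitochondria, were positive in 52 of 77 (37 of 77 without R213G replicate 1), with 0 called and 3 at an unadjusted p under 0.05 by edgeR. Over all tested genes 49.1% were positive and 2.22% had such a p. Mrpl35 (0.62 ± 0.25) and Mrpl41 (0.59 ± 0.24) had the smallest p, and without R213G replicate 1 the log2 fold change of Mrpl41 was 0.32. The median difference of the list between R213G replicates 1 and 2 was 0.18, and between the WT libraries -0.010. In the mTORC1 and Myc control list 4 of 17 genes had a positive log2 fold change and 0 were called, with a median of -0.082. Without R213G replicate 1, 8 of 17 were positive and the median was -0.015. Mxd1, an antagonist of Myc, was at 31.7 ± 4.66 CPM in the R213G libraries against 41.4 ± 2.95 in the WT libraries (log2 fold change -0.38 ± 0.19, and -0.24 without R213G replicate 1). Akt1s1, an inhibitory subunit of mTORC1, was at 55.7 and 62.3 CPM in the R213G libraries against 48.1 and 50.9 in the WT libraries. Rheb, the GTPase that activates mTORC1, was at 86.7 and 89.0 CPM in the R213G libraries against 74.7 and 80.1 in the WT libraries, so both of these lay higher in R213G while Mxd1 lay lower. Ribosome quality control genes were positive in 4 of 9 (2 of 9 without R213G replicate 1) with 0 called. Zfp598, the ubiquitin ligase that marks collided ribosomes, had a log2 fold change of -0.33 ± 0.15. Abce1, which splits ribosomes for recycling, lay on the other side, at 114 and 108 CPM in the R213G libraries against 97.8 and 94.9 in the WT libraries. In the ribosomal stress and p53 list 0 of 5 were positive (1 of 5 without that library) and 0 were called. Mdm2, the p53 ubiquitin ligase, was at 80.6 and 109 CPM in the R213G libraries against 112 and 115 in the WT libraries (log2 fold change -0.26 ± 0.16). R213G replicate 1 alone was low, and without it the log2 fold change of Mdm2 was -0.063.

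**Figure D5:**
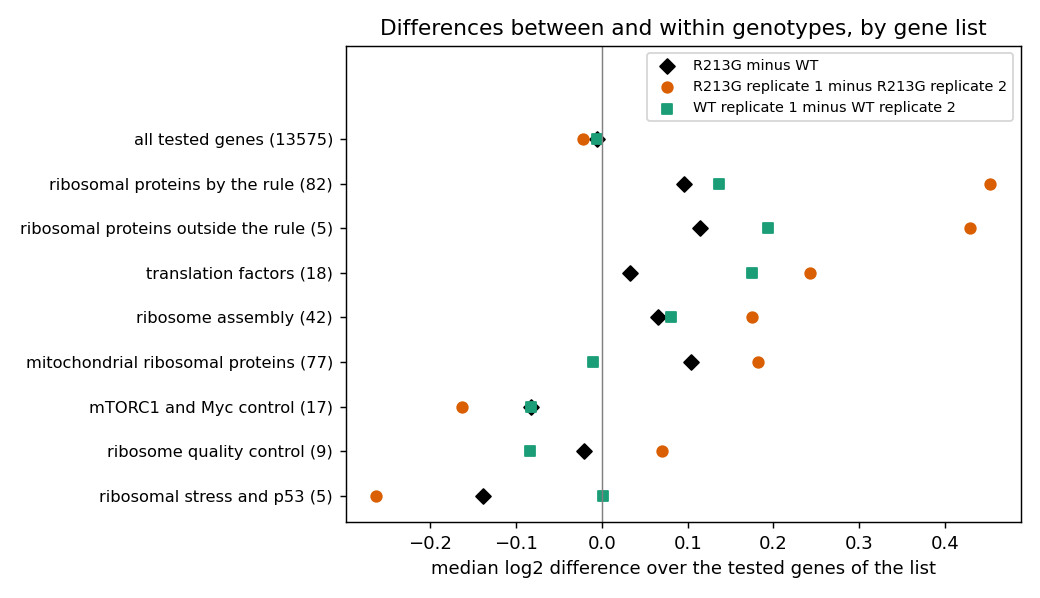
Median log2 difference over the tested genes of each list (number in brackets) between genotypes (diamonds), between the R213G libraries (circles) and between the WT libraries (squares). The ribosomal proteins by the rule differ by 0.45 between the R213G libraries and by 0.096 between genotypes, and all tested genes lie near 0.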

How the data were processed

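Poly(A) RNA of sorted recruited alveolar macrophages was sequenced in 4 libraries, with directional libraries per the labels' protocols. The deposited table holds raw read counts by gene symbol that the authors had not normalized. STAR 2.5.1b, featureCounts and Subread 1.4.4 with GRCm38 are listed in the submitters' processing notes. Which annotation and strand setting were used, and how multi-mapping reads were handled, is not given in the sources used here. Columns were matched by the short names in the labels.

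R213G was tested against WT with edgeR 4.0.16 (quasi-likelihood in its newer form, TMM, filterByExpr, robust, Benjamini-Hochberg, threshold 0.05) in R 4.3.3 over 13575 genes, with 2 residual degrees of freedom. The SE is the log2 fold change divided by the square root of F. Differences between libraries use log2 CPM with a prior count of 2. With 2 libraries per genotype the smallest two-sided p of an exact permutation test is 0.333, and none was run. Scripts were tested on simulated data. No libraries were duplicates: the lowest chi-square per degree of freedom between any 2 was 17.5. Intervals and floors cover counting error only, since PCR copies are counted as reads.

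Gene models came from GENCODE vM21, using the shortest well-supported principal coding transcript, and coding lengths leave out the stop codon. The members and lists were chosen with earlier results of these data known. The named members were the stalk genes, the 3 highest per kb in each subunit, the 5 of smallest p in each direction, the 5 of widest range, those at 0 or below the filter, the paralogs and those with listed roles. Rack1 and the non-overlapping members were also named, after their values were seen. Some genes that these rules select are not reported here. Alternatives were other scalings, filters, tools (DESeq2 1.42.0, limma 3.58.1), a replicate block and leaving out each library.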

Additional observations from a re-analysis of the deposited data

How the results depend on the processing

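With 2 libraries per genotype and members of few counts, small differences could not be detected. The count of called members was 0 under every alternative run, including an adjusted p under 0.1. Leaving out each library gave from 16 to 65 members with a positive log2 fold change, a median of members from -0.14 to 0.30 and a difference in the ribosomal share of counts from -0.061 to 0.164 percentage points. The direction of the median and of the share turned without R213G replicate 1 only. Other scalings, filters and tools gave medians from 0.083 to 0.118. With the replicate block 58 of 82 members were positive, the median was 0.088 and 0 were called. Across genes, deviations of same-numbered libraries from their genotype means correlated with r = 0.194 over 9690 genes and -0.0247 over 61 members. Such an r leaves out any shift that all members share. Of these 61 members, 58 were higher in R213G replicate 1 than 2 and 46 in WT replicate 1 than 2. The shares were 48.7% and 49.9% over all tested genes of at least 5 CPM. With 2 pairs the numbers cannot show whether libraries were paired. Of 231 alternative values of 17 log2 fold changes of single genes, 229 kept their direction, and those of Rps16 (-0.12) and Rpl30 (-0.062) turned without R213G replicate 1. Leaving out each library gave from -0.12 to 0.71 for Rps16 and from -0.062 to 0.61 for Rpl30. Added after seeing the data, members of at least 5 CPM had 50 of 61 positive (median 0.11), 8 of 61 without R213G replicate 1, and whole transcripts in place of coding sequences gave a rho of 0.517.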
